A study of Mus musculus with 4 samples.

Results

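The NF-kB subunits and their feedback inhibitors were followed through 10 genes, Nfkb1, Nfkb2, Rel, Rela, Relb, Nfkbia, Nfkbie, Nfkbiz, Tnfaip3 and Irak3. A probe was taken when the gene name in the array files, or the current symbol of its RefSeq accession, was one of these, which gave 16 of the 41174 gene probes and 10 of the 27670 genes on the array. Male C57BL/6J mice aged 7 weeks had eaten either a purified diet with 1.2% of a nucleoprotein product (0.5% nucleic acids) or the control purified diet (0.03% nucleic acids). After 4 weeks every mouse received lipopolysaccharide (LPS), a bacterial cell wall component, at 10 mg/kg, and liver and spleen were collected after 6 h. The RNA of a diet was pooled, and each organ's pools were run on 2 arrays read in 2 colours, with the nucleoprotein pool in Cy5 (red) on array 1 and in Cy3 (green) on array 2.

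The labels give neither the number of mice in a pool nor whether the pooled samples numbered 1 and 2 came from different mice. Both arrays of an organ were therefore counted as 1 pool per diet measured under a dye swap, no test was possible, and an SD of the 2 arrays covers labelling and array error only if the pools were indeed the same. Dye orientation and pooled sample number coincide, so a difference between the 2 arrays cannot be assigned to either. A standard chow is named under housing, whereas the design names a purified diet, and the purified diet was taken as what the mice ate. No mice without LPS were analysed here, so induction by LPS could not be measured. All 4 arrays were on 1 slide, and the share of gene spots well above background ran from 55.0% to 72.6% over the 8 channels.

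NF-kB is a family of dimeric transcription factors that toll-like receptors, the receptors for tumour necrosis factor and the interleukin-1 receptor switch on. In resting cells IkB proteins hold the dimers in the cytoplasm, and the IkB kinase (IKK) complex marks the IkB proteins for destruction, which frees the dimers to enter the nucleus. Many of the freed dimers' target genes encode their own inhibitors, so that the response limits itself. In liver after LPS the pathway works in Kupffer cells, endothelium and hepatocytes, and in spleen mainly in B cells, macrophages and dendritic cells.

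Values below rest on probes of 60 bases. To show what was hybridised, here are probes of 3 subunits and 2 inhibitors that carry results below, 5′ to 3′ as the deposited array files give them, with their positions on mouse build mm7. No stretch is marked in capitals. The Rela and Irak3 probes shown are further probes of these genes, whose main values below come from brighter probes not shown. The Nfkbia probe covers 496 bases of the genome and the Nfkb2 probe 140, more than their own length.
Nfkb2 probe A_51_P454217, chr19:46208290-46208429, forward strand: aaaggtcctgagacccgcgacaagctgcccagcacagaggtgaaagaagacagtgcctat
Relb probe A_51_P389751, chr7:17288747-17288806, reverse strand: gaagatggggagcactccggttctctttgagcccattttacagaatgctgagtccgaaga
Rela probe A_52_P186119, chr19:5541942-5542001, forward strand: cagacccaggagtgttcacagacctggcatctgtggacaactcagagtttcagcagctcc
Nfkbia probe A_51_P295192, chr12:53415998-53416493, reverse strand: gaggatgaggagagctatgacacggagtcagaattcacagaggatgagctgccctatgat
Irak3 probe A_52_P644273, chr10:119537251-119537310, reverse strand: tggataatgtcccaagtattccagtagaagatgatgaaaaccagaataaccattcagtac

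The first comparison asked whether the nucleoprotein diet altered these genes in injected mice. None of them differed with diet past the 1.5-fold bound (a log2 ratio of 0.58 either way, required of both arrays with 1 sign) in liver or in spleen. In liver 0 of the 9 measurable members passed, where 0.329% of the 16405 measurable genes did (2 higher and 52 lower). In spleen 0 of 10 passed, where 0.441% of 18149 genes did (39 higher and 41 lower). A gene counted as measurable when both arrays showed its probe well above background in at least 1 diet, and its brightest probe represents it. The c-Rel gene Rel was not well above background in any liver channel and has no liver ratio.

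The mean log2 ratios of nucleoprotein over control ran from -0.15 to 0.15 in liver, with a median of -0.03. Over all measurable genes the median was 0.01, with the 5th and 95th percentiles at -0.15 and 0.16. In spleen the members ran from -0.04 to 0.07 with a median of 0.01, against a median of -0.00 and percentiles of -0.15 and 0.13 over all genes. In both organs the members thus spanned about the range that most genes did, or a narrower one.

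**Figure D1:**
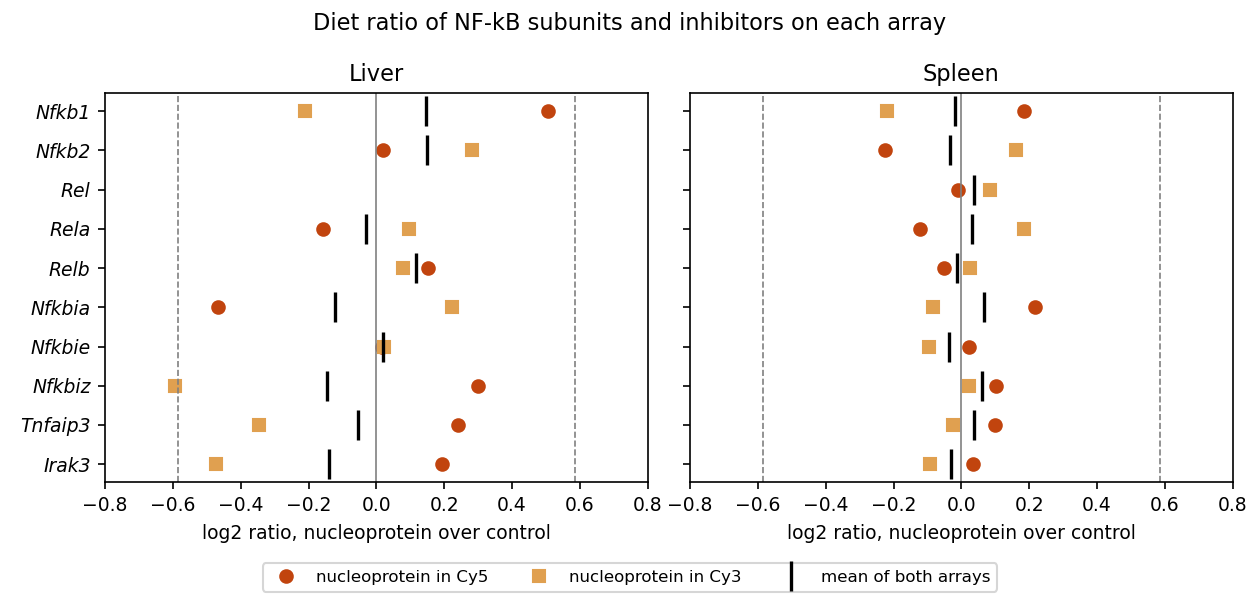
Log2 ratio of nucleoprotein over control (horizontal axis) for each of the 10 genes in liver (left) and spleen (right). Circles stand for the array with the nucleoprotein pool in Cy5, squares for the array with it in Cy3, black strokes for the mean of both, and dashed lines for the 1.5-fold bound. In liver the arrays lie far apart for Nfkb1, Nfkbia, Nfkbiz, Tnfaip3 and Irak3, while all means lie between -0.15 and 0.15. Rel has no liver value.

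Among the subunits, Nfkb1 encodes p105, the precursor of p50. In liver its ratio was 0.51 on array 1 and -0.21 on array 2, a mean of 0.15 ± 0.51 (SD, n = 2 arrays, taken as 1 pool per diet). In spleen it was 0.18 and -0.22, a mean of -0.02. Its probe was printed 10 times on each array, and the spots of an array lay close together, with SDs of 0.06 to 0.08 in the 4 arrays. The liver spots ran from 0.38 to 0.66 on array 1 and from -0.34 to -0.09 on array 2. The spots of the 2 liver arrays did not overlap, and the sign differed between the arrays in both organs. Spots within an array hold only the error of printing and reading.

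**Figure D2:**
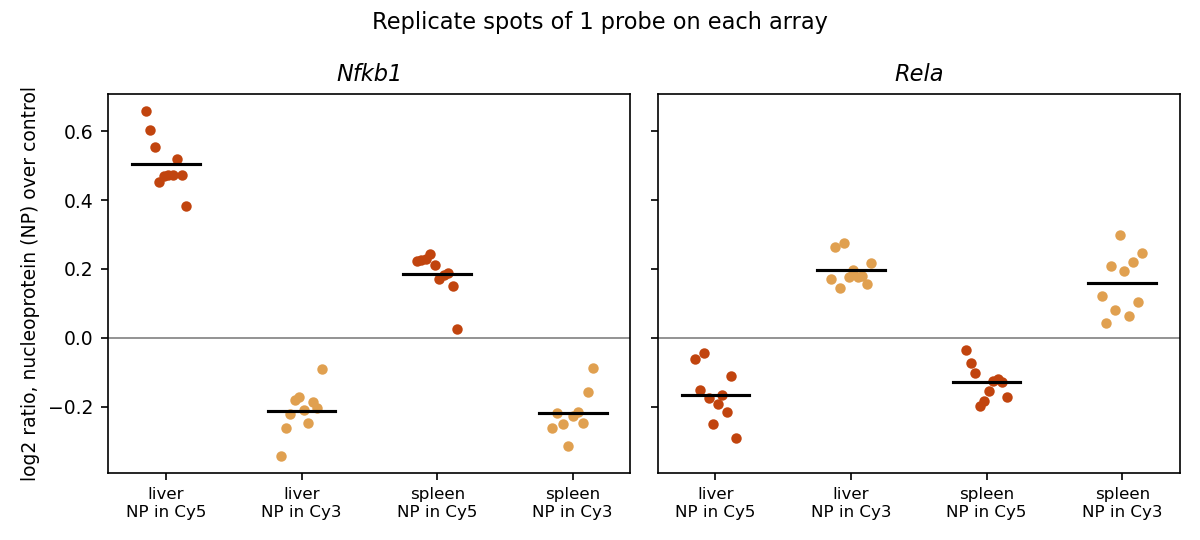
Log2 ratio of nucleoprotein (NP) over control for each replicate spot of 1 Nfkb1 probe (left) and of the second Rela probe, A_52_P186119 (right), on the 4 arrays. Dots are spots and bars their mean. Spots of an array cluster together, and the sign differs between the 2 arrays of each organ, in opposite senses for the 2 probes shown.

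The other 3 Nfkb1 probes target separate cDNAs of the locus. Their liver means were 0.07, 0.02 and 0.04, and their spleen means -0.04, 0.16 and 0.18. In spleen 2 of these probes split the other way from the first, at -0.20 and 0.11 and at -0.12 and 0.44. None of the 3 passed the bound on both arrays.

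Nfkb2 encodes p100, which is both an inhibitor and the precursor of p52 in the alternative pathway. Its ratio was 0.02 and 0.28 in liver (mean 0.15 ± 0.19) and -0.23 and 0.16 in spleen (mean -0.03 ± 0.27). Relb, whose product pairs with p52, stood at 0.15 and 0.08 in liver and at -0.05 and 0.03 in spleen. Both genes were thus above 0 on both liver arrays, with Relb's mean of 0.12 larger than its SD of 0.05, but neither came near the bound. Nfkbie in liver and Nfkbiz in spleen also had means larger than their SDs, at only 0.02 and 0.06.

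Rela encodes p65, the main transactivating subunit, and gave -0.16 and 0.09 in liver and -0.12 and 0.18 in spleen. Its second probe, A_52_P186119 above, gave -0.17 and 0.20 in liver and -0.13 and 0.16 in spleen. The sign differed between the arrays for both probes in both organs, and the means lay between -0.03 and 0.03. Rel was measured in spleen alone, at -0.01 and 0.08.

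Of the IkB proteins, Nfkbia encodes IkB alpha, the inhibitor that NF-kB resynthesises first. Its liver ratio was -0.47 on array 1 and 0.22 on array 2 (mean -0.12 ± 0.49), and its spleen ratio 0.22 and -0.08 (mean 0.07 ± 0.21). Nfkbie, which encodes IkB epsilon, was at 0.02 on both liver arrays and at 0.02 and -0.09 in spleen. Nfkbie was the member with the smallest gap between the arrays in liver, and Nfkbia one of those with a large gap.

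Nfkbiz encodes IkB zeta, a nuclear member of the family that helps p50 switch on late genes such as Il6. It had the widest split in liver, 0.30 on array 1 and -0.59 on array 2, a mean of -0.15 ± 0.63. On array 2 alone it passed the 1.5-fold bound, and on array 1 it pointed the other way. In spleen it was 0.10 and 0.02, the single member above 0 on both arrays there.

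Tnfaip3 encodes A20, an enzyme that edits ubiquitin chains and shuts off signalling upstream of IKK. It gave 0.24 and -0.35 in liver (mean -0.05) and 0.10 and -0.02 in spleen (mean 0.04). Irak3 encodes IRAK-M, a kinase-like brake on toll-like receptor signalling in macrophages, and gave 0.19 and -0.47 in liver (mean -0.14) and 0.03 and -0.09 in spleen (mean -0.03). The other 2 Irak3 probes gave 0.46 and -0.67, and 0.10 and -0.23, in liver, the last pair from the probe shown above. All 3 Irak3 probes were thus higher in the nucleoprotein pool on array 1 and lower on array 2.

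In liver 3 members (Nfkb2, Relb and Nfkbie) were above 0 on both arrays, 0 were below 0 on both, and 6 had opposite signs. In spleen 1 was above 0 on both and 9 had opposite signs. The SD of the 2 arrays had a median of 0.42 over the liver members, against 0.13 over all measurable liver genes and 0.21 over the 5208 with a mean level of at least 10 log2 units. In spleen these medians were 0.09, 0.10 and 0.13. The cause of the wider liver split was not tested. Averaged over both arrays as Cy5 over Cy3, regardless of diet, the log2 ratio in liver was 0.45 for Nfkbiz, 0.36 for Nfkb1, 0.33 for Irak3, 0.29 for Tnfaip3 and -0.34 for Nfkbia. The 95th percentile of the size of this ratio was 0.38 over all measurable liver genes. Most of those genes, 11197, lie below a mean level of 10, where the median SD of the 2 arrays was 0.10. Under centring on each array's median in place of loess, all 9 liver means lay above 0, at 0.16 to 0.44, so that the sign turned for Rela, Nfkbia, Nfkbiz, Tnfaip3 and Irak3, while the median of all liver genes moved to 0.17. Relative to that median the members lay at -0.01 to 0.27. Still 0 members passed the bound.

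Genes of other cell types differed between the diet pools in the same arrays. Lower with nucleoprotein in liver were 11 of 11 measurable pancreatic acinar markers, whose median ratio was -4.04. In spleen 10 of 11 were lower, with a median of -1.12, and 6 of 12 hepatocyte markers were higher, with a median of 0.64. Of B cell, T and NK cell, macrophage and neutrophil markers, 0 passed the bound in either organ, with list medians between -0.08 and 0.14. Over all genes 0.329% passed in liver and 0.441% in spleen, so these zeros set the markers apart from no other genes. The part of the differences in acinar and hepatocyte markers in the members' ratios was not tested.

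The surrounding pathway was read from 4 lists. Of the other IkB genes Nfkbib, Nfkbid and Bcl3, 0 of 3 passed the diet bound in liver and 0 of 3 in spleen. Of 30 genes of the IKK complex and upstream signalling, 0 passed in either organ, with medians of 0.01 in liver and 0.00 in spleen. Of 21 other negative regulators 0 passed, with medians of 0.03 and 0.01 (liver and spleen). Of NF-kB target genes 0 of 35 passed in liver and 0 of 37 in spleen, with a median of 0.03 in each organ. Calls were rare over the whole array, as given above, so the zeros set these lists apart from no other genes.

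Some of the largest mean ratios in these lists follow. Irak2, a kinase that carries the sustained phase of toll-like receptor signalling, stood at -0.57 and -0.47 in spleen (mean -0.52 ± 0.07), inside the bound on both arrays, and gave 0.26 and -0.27 in liver. Nfkbid, which encodes the nuclear IkB protein IkB NS, was at 0.29 on both spleen arrays. Socs3, a feedback inhibitor of cytokine receptors, was at 0.22 and 0.19 in spleen. The kinase gene Ikbke was at -0.09 and -0.46 in liver, a mean of -0.28.

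Among the targets, the cytokine gene Tnf gave 0.22 and -0.22 in liver and -0.23 and -0.15 in spleen. Il6 gave -0.04 and 0.26 in liver and -0.04 and 0.06 in spleen. Il1b gave 0.20 and 0.33 in liver and 0.02 and 0.11 in spleen. The largest target means were Gadd45b at 0.28 and Ptx3 at -0.28 in liver, and Ccl4 at 0.22 and Tnf at -0.19 in spleen. All of these lay inside the bound.

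**Figure D3:**
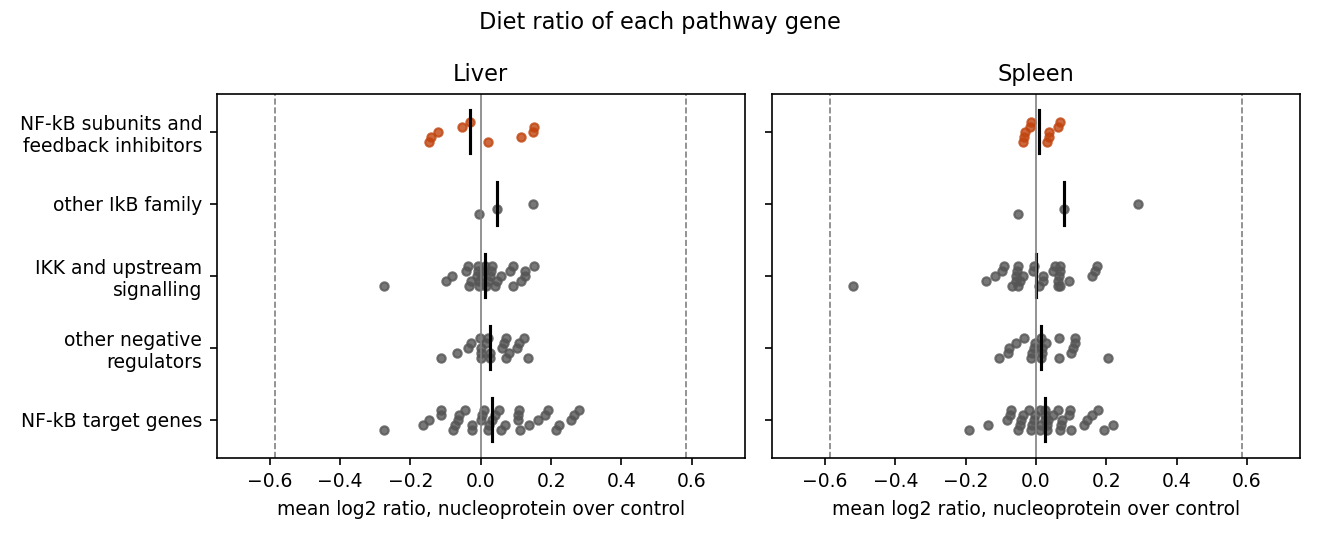
Mean log2 ratio of nucleoprotein over control for each measurable gene of the 10 members and of 4 pathway lists, in liver (left) and spleen (right). Each dot is a gene, vertical height within a row has no meaning, black strokes are list medians, and dashed lines mark the 1.5-fold bound. No dot lies past a dashed line, and Irak2 in spleen, at -0.52, lies nearest to one.

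The second comparison set liver against spleen within each probe, from the normalized level of each single channel in log2 units. It describes how these genes stood in the injected mice of both diets. Between the organs 6 of the 10 members were past 2-fold in spleen and 0 in liver, with the 4 channels of 1 organ not overlapping those of the other. Over the 19238 genes measurable in either organ, 19.7% were past 2-fold in spleen and 14.8% in liver by the same rule. The members' median difference, liver minus spleen, was -1.36 against -0.09 over all genes. Organ and array cannot be told apart here, and in whole organs fewer cells of a type and less RNA per cell cannot be told apart either.

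**Figure D4:**
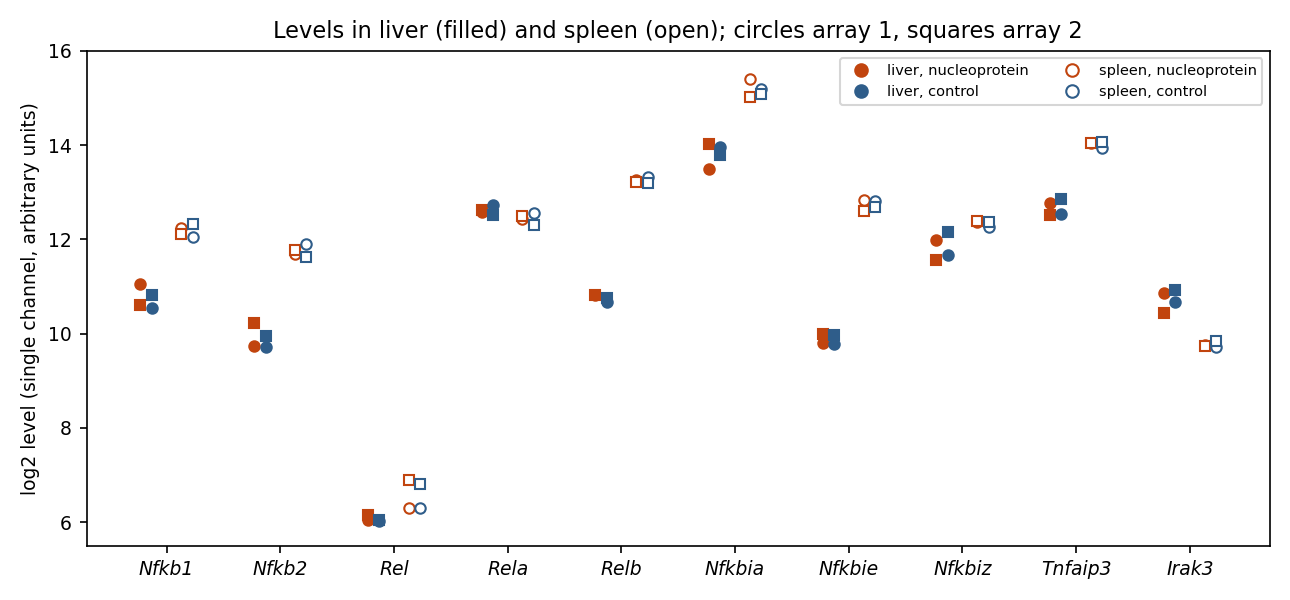
Normalized single-channel log2 level (vertical axis, arbitrary units) of the representing probe of each gene, in liver (filled) and spleen (open), for the nucleoprotein pool (orange) and the control pool (blue), circles for array 1 and squares for array 2. Spleen lies above liver with a wide gap for Nfkbie, Relb, Nfkb2, Nfkb1, Nfkbia and Tnfaip3, the organs overlap for Rela, and liver lies above spleen for Irak3. Heights of different genes cannot be compared.

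The widest difference was that of Nfkbie. Its liver levels were 9.80 and 9.99 in the nucleoprotein pool and 9.78 and 9.97 in the control pool, against spleen levels of 12.84 and 12.59 in the nucleoprotein pool and 12.82 and 12.69 in the control pool. Liver minus spleen was -2.85, or 7.20-fold higher in spleen. The 4 channels of each organ lay within a narrow band, far from those of the other organ.

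Relb followed. Its liver levels were 10.81 and 10.82 in the nucleoprotein pool and 10.66 and 10.74 in the control pool, against 13.27 and 13.21, and 13.32 and 13.19, for the same pools of spleen. The difference was -2.48, or 5.60-fold. Nfkb2, the gene for the precursor of RelB's partner p52, lay at 9.72 to 10.22 in liver and 11.62 to 11.91 in spleen, a difference of -1.84 (3.59-fold). Relb and Nfkb2 were thus both well separated between the organs.

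Nfkb1 lay at 10.54 to 11.05 in liver and 12.05 to 12.32 in spleen, a difference of -1.43 (2.69-fold). Its other 3 probes, which target separate cDNAs of the locus, gave -1.88, -1.84 and -1.28, so that all 4 probes were past 2-fold. Whether the 4 probes read the same transcript was not tested. Nfkbia lay at 13.49 to 14.02 in liver and 15.01 to 15.40 in spleen, a difference of -1.36 (2.57-fold). Tnfaip3 lay at 12.51 to 12.86 in liver and 13.95 to 14.06 in spleen, a difference of -1.35 (2.56-fold). Nfkb1, Nfkbia and Tnfaip3 thus had nearly equal differences in the main scaling. With the processed signals described below they lay further apart, at -1.06, -0.36 and -0.63.

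The remaining 4 genes stayed inside the 2-fold bound. Nfkbiz lay at 11.57 to 12.16 in liver and 12.27 to 12.40 in spleen, a difference of -0.51 without overlap. Rel was not well above background in any of the 4 liver channels and was so in 3 of the 4 spleen channels. Its spleen levels were 6.30 and 6.88 in the nucleoprotein pool and 6.31 (not well above background) and 6.80 in the control pool. In the main scaling this made it at least 1.41-fold higher in spleen, a bound that did not hold throughout, since liver minus spleen was -0.27 on array 1 alone and -0.75 on array 2 alone, and its sign turned under another scaling given below. Rela overlapped, at 12.52 to 12.74 in liver and 12.31 to 12.56 in spleen (difference 0.16), while its second probe gave 0.73 without overlap. The 2 Rela probes hence differed in size and agreed in sign.

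Irak3 stood higher in liver. Its liver levels were 10.86 and 10.44 in the nucleoprotein pool and 10.67 and 10.92 in the control pool, against 9.75 and 9.74, and 9.72 and 9.84, for the same pools of spleen. The difference was 0.96, or 1.94-fold, just inside the bound, and its other probes gave 1.19 (past the bound) and 0.88. The lowest liver channel of each probe lay above the highest spleen channel. Within the nucleoprotein pools alone and within the control pools alone, the differences kept their sign for every member, for instance -2.82 and -2.88 for Nfkbie, -1.46 and -1.27 for Nfkbia, and 0.90 and 1.01 for Irak3. Both diets share the arrays, and the diet ratios were small beside most of these differences. A turned sign was therefore hardly possible, and the agreement is no separate check.

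The size of some differences rested on how the organs were scaled to each other. With Feature Extraction's processed signals, each channel centred on its 75th percentile, the differences of Nfkbie, Relb, Nfkb2 and Nfkb1 were -2.46, -2.09, -1.57 and -1.06, still past 2-fold. Those of Nfkbia and Tnfaip3 were -0.36 and -0.63, inside the bound, that of Nfkbiz turned to 0.09, Irak3 passed the bound at 1.18 and Rel at -2.83, with a median of -0.04 over all genes. With loess and 75th percentile centring but no Aquantile step, a choice made after seeing the data, Nfkbia and Tnfaip3 were at -0.63 and -0.81 and Rel turned to 0.37, while the median of all genes was 0.40. Relative to that median, Nfkbia stood at -1.03, Tnfaip3 at -1.21 and Rel at -0.03. Under this scaling 60.7% of the genes past 2-fold were liver higher, against 42.9% in the main scaling. Of the 6 genes, Nfkbie, Relb, Nfkb2 and Nfkb1 passed under all 5 scalings tried, and Nfkbia and Tnfaip3 under 3. Those 3, the main scaling, normexp offset 10 and quantile normalization, gave nearly equal values for the 6 genes. Of 19238 genes, 3789, 4666 and 3790 were past 2-fold in spleen under them. With processed signals 5489 were, and 2931 without Aquantile. The median size of a difference over all genes was 1.13 with processed signals, larger than that of Nfkb1, against 0.63 in the main scaling.

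**Figure D5:**
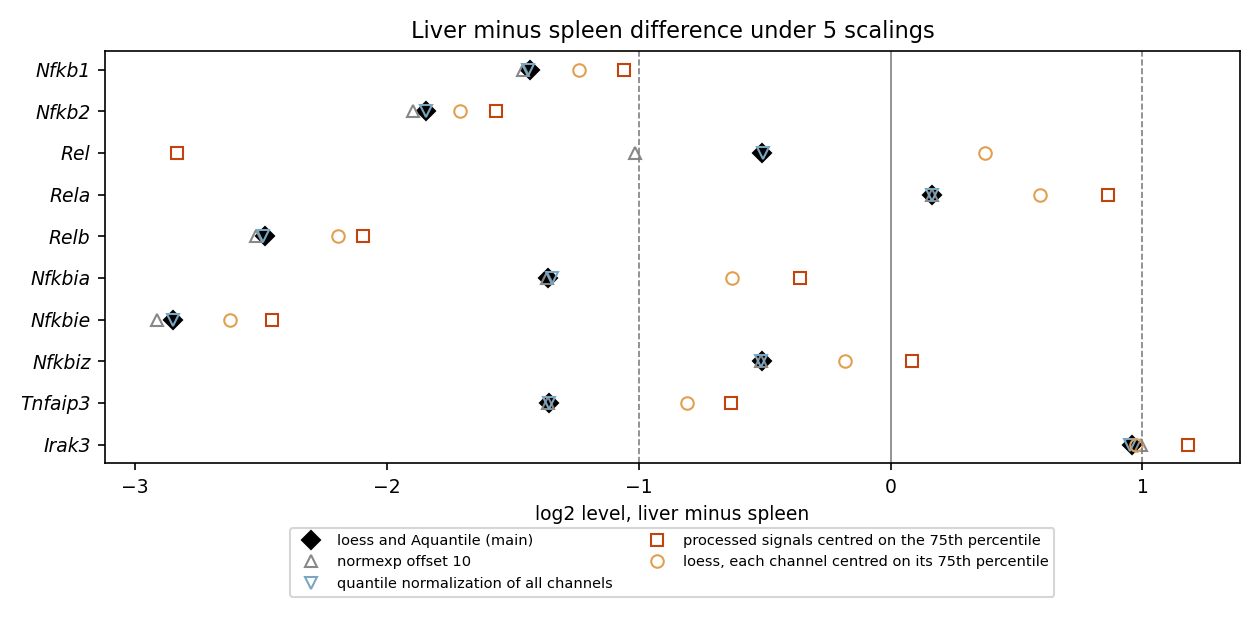
Difference in log2 level, liver minus spleen (horizontal axis), of each gene under 5 scalings of the arrays, 1 symbol each. Dashed lines mark 2-fold. Nfkbie, Relb, Nfkb2 and Nfkb1 lie beyond the left line under all 5, Nfkbia and Tnfaip3 cross to its right under the 2 scalings centred on the 75th percentile, and Rel, at background in liver, scatters most. For genes other than Rel, normexp offset 10 and quantile normalization lie close to the main scaling.

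The marker lists differed between the organs in the same channels. All 10 of 10 B cell markers were past 2-fold in spleen, with a median difference of -4.66, as were 9 of 12 T and NK cell markers (1 in liver, median -2.70) and 8 of 12 macrophage markers (2 in liver, median -1.53). All 15 of 15 hepatocyte markers were past 2-fold in liver, with a median of 7.37. Neutrophil markers were past it in spleen for 3 of 9. The part of cell makeup in the members' differences was not tested.

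The pathway lists held genes past 2-fold in both directions. Past 2-fold in liver and in spleen were 5 and 8 of 30 IKK and upstream genes, 1 and 6 of 21 other negative regulators, and 7 and 14 of 37 target genes, where the shares over all genes were 14.8% and 19.7%. The IKK and upstream counts lie near those shares, as do the liver count of targets and the spleen count of other negative regulators. All these counts come from the main scaling, and none was tested against the shares. Of the other IkB genes, Nfkbid was higher in spleen (-2.82), while Nfkbib and Bcl3 each differed by 0.06. Upstream, Cd40, a receptor on B cells that signals partly through the alternative pathway, and Traf1, an adaptor, were higher in spleen (-2.97 and -4.48). Ltbr, another receptor gene of that list, was higher in liver (1.30). The IKK subunit genes Chuk and Ikbkg and the related kinase gene Ikbke were also higher in liver (1.41, 1.58 and 2.08). The third IKK subunit gene, Ikbkb, stood the other way at -0.92, inside the bound. Among targets Cd83 (-5.04) and Il6 (-2.44) were higher in spleen, and the acute phase genes Lcn2 (2.52) and Saa3 (2.05) were higher in liver.

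The genes with the most similar pattern were ranked by Pearson correlation over the 8 channels for 1 gene of each role. For Nfkb2 these were Atp7a, LOC544954 and Arl2bp, for Nfkbia they were Dus2, Psma2 and Cfap45, and for Irak3 they were Gstp3, Ap3m1 and Enpp5. Their correlations were 0.994 to 0.999. Correlations exceeded 0.9 for 36.1%, 34.0% and 26.5% of the 18974 genes compared with Nfkb2, Nfkbia and Irak3. The 8 channels form an organ split, so the measure mostly ranks genes by that split.

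The 250 bases before the starts of the members were searched for the kappa B consensus, the site that NF-kB dimers bind. Both strands were searched, with overlapping matches counted. Of the 10 members, 7 had an entry in the RefSeq promoter table (GRCm38.p6), all but Nfkb1, Relb and Nfkbiz. A match was found for 5 of the 7, namely Nfkb2, Rel, Nfkbia, Nfkbie and Tnfaip3, and none in the windows of Rela and Irak3. In all, 3.90% of 32851 windows and 4.46% of genes held a match. These stretches, read 5′ to 3′ along the gene with the match in capitals, show where the consensus lay, and they end at or before the base ahead of the start.
Nfkb2, chr19:46304678-46304736, forward strand: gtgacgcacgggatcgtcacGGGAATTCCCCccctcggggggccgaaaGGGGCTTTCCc
Rel, chr11:23771031-23771081, reverse strand: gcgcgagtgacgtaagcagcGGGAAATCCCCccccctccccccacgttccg
Nfkbia, chr12:55492648-55492696, reverse strand: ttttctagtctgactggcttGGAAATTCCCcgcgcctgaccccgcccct
Nfkbie, chr17:45555574-45555623, forward strand: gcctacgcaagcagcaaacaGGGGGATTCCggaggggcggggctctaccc
Tnfaip3, chr10:19015411-19015555, reverse strand: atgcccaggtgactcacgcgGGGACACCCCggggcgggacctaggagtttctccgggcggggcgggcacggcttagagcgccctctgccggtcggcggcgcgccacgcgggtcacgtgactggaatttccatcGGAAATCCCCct

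The stretch of Nfkb2 held 3 matches, of which 2 overlap, and that of Rel held 2 that overlap. The first base of a match lay 29 bases ahead of the start in Nfkbia and 106 in Nfkbie, and in Tnfaip3 at 12 and 125. Of the 5 genes with a match, 4 were past 2-fold in spleen in the main scaling, where 6 of the 10 members and 19.7% of all genes were. Rel was at background in liver. Of the 4, Nfkbia and Tnfaip3 fell inside the bound under the scalings centred on the 75th percentile. Nfkb1 and Relb were also past 2-fold and had no promoter entry. Whether a match goes with an organ difference was not tested. A match is a run of letters and not a site shown to be bound in these organs.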

How the data were processed

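RNA pooled by diet from liver and spleen was hybridised to 4 two-colour arrays of 1 slide. Per the submitters' processing notes, the scans were read with Feature Extraction 9.5.3.1 (Agilent); per the file headers, the step version was 9.5.1.1. The deposited scanner files hold, per spot, mean and background intensity for each channel, processed intensity after background subtraction and dye normalization, and the log10 of red over green. The authors' series value table holds a signed score: its size was the linear red over green ratio within 0.02 log2 units for 99.7% to 99.9% of spots that both channels showed well above background, and every value of array 1 of each organ carries a minus sign whose purpose is not stated in the sources used here.

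Background was corrected by normexp (offset 50), ratios were normalized by loess within arrays with control spots at weight 0, and single-channel levels were scaled by Aquantile (limma 3.58.1, R 4.3.3). Between 189 and 354 outlier spots of 43379 gene spots per array were left out, and 0 were saturated. Spots of a probe were averaged, ratios were turned to nucleoprotein over control, and the brightest probe represents a gene. The pipeline was tested on simulated data, with changes larger than the bounds used here planted in bright probes. That test does not cover small diet changes. Probes were named through RefSeq (GRCm38.p6): 22951 by accession, 9768 by symbol or synonym, and 8455 kept the file's name. With the samples counted as 1 pool per diet and organ, variation between mice was not measured. Array number limits the precision of the ratios.

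The members and lists were chosen with earlier results of these data known. Genes named outside the members are those with the largest mean ratio in a list, the main cytokines, and, for liver against spleen, genes chosen after their values were seen. Alternatives were another offset, median centring, the deposited log ratio, the value table, a stricter detection filter, the mean over probes, single arrays, and 3 other scalings between the organs.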

Additional observations from a re-analysis of the deposited data

How the results depend on the processing

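With both arrays in use, 0 members passed 1.5-fold with diet in either organ under every alternative tried, and on liver array 2 alone Nfkbiz passed it (lower, -0.59), so leaving out 1 array gave 0 to 1 members in liver. The number of all genes past 1.5-fold moved more. In liver it was 54 (3.70% of them higher), and 32 with median centring, 134 with Feature Extraction's deposited log ratio (20.9% higher), 134 with the authors' value table, and 288 to 292 on a single array (67.1% of them higher on array 1 and 10.4% on array 2). In spleen it was 80 (39 higher and 41 lower), and 40 with median centring (30 higher and 10 lower), 183 with the deposited log ratio, 181 with the value table, and 115 to 140 on a single array. Between the organs 6630 genes passed 2-fold (42.9% of them liver higher), and 10365 with processed signals. Replacing Aquantile by 75th percentile centring, chosen after seeing the data, gave 7461 with 60.7% liver higher, and members past 2-fold then numbered 4 in place of 6. Normexp offset 10 gave 7 members, with Rel at -1.01, and the mean over probes and array 1 alone gave 7 each, with 1 liver higher. The causes were not tested. No paired analysis was possible because these results come from no test, and the shared numbers 1 and 2, which coincide with dye orientation, are not stated to link liver and spleen samples. Signal over background limits Rel, which was not well above background in liver.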
